A study of Mus musculus with 21 samples.

Results

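Heat shock chaperone genes, 10 in number, were followed by gene name in both tables of the study: Hspa1a, Hspa1b, Hspa8, Hsp90aa1, Hsp90ab1, Dnajb1, Hspb1, Hsph1, Hspd1 and Hsf1. All 10 were found once in each table, among 21161 gene names in the cell-state table and 55291 in the lactate table, and all 10 passed the filter on low values. RNA came from mouse cells of OG2, the name of a mouse line that carries a GFP transgene under control sequences of the pluripotency gene Pou5f1. The first table covers 4 cell states in 3 libraries each, all labelled WT: 2-cell-like cells (2CLCs, which express transcripts of the early cleavage embryo), ESCs (embryonic stem cells), EpiSCs (stem cells of the epiblast, a primed form of pluripotency) and MEFs (embryonic fibroblasts). For lactate, there were 3 libraries of ESCs at each of 0, 60 and 80 mM sodium lactate. How the 2CLCs were obtained, how long lactate was given and whether replicates came from separate cultures are not stated in the labels, so p-values here measure only the spread between these libraries.

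Molecular chaperones bind unfolded proteins and help them fold. HSP70 proteins do so in cycles of ATP hydrolysis that are driven by J-domain proteins and reset by nucleotide exchange factors, HSP90 acts later on kinases and receptors, small heat shock proteins hold unfolded clients, and chaperonins enclose them. The transcription factor HSF1 is held inactive in unstressed cells and, on heat or other stress to proteins, binds repeats of the unit GAA in alternating orientation to switch on Hspa1a, Hspa1b and other chaperone genes. In the mouse embryo, transcripts of Hspa1a and Hspa1b are among the earliest made when the embryonic genome is activated.

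Hspa1a and Hspa1b are neighbouring genes of a single exon on the minus strand of chromosome 17, at chr17:34969190-34972156 and chr17:34956436-34959238 (GRCm38, GENCODE M21), with 9951 bases between them. Their transcripts were identical at 91.4% of 2729 aligned bases and had a common run of 638 bases, so that the authors' quantification could split reads between them, and their sum is given beside each of them. The bases upstream of these 2 genes and of Hspb1 are shown because these were the members that differed most between cell states. The sequences are the 250 bases before the RefSeq start site on GRCm38.p6, 5′ to 3′ on the gene's strand, with matches to GAANNTTC, a pair of GAA units facing each other, in capitals.
Hspa1a (chr17:34972157-34972406, minus strand): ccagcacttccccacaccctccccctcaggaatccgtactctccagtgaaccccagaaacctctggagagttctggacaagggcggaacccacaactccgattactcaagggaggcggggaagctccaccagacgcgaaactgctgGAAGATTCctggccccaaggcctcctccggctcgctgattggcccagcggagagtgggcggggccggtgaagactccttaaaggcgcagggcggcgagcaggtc
Hspa1b (chr17:34959239-34959488, minus strand): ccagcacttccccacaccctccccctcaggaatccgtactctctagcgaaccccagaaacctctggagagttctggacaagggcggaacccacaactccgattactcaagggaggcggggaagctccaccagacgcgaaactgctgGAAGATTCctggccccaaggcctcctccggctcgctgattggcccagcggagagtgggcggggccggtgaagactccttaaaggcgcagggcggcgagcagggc
Hspb1 (chr5:135887669-135887918, plus strand): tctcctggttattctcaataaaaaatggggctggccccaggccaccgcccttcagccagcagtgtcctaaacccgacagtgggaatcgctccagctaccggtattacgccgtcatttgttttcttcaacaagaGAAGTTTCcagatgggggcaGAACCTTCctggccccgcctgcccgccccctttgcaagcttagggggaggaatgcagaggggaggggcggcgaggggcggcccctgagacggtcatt

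The stretches of Hspa1a and Hspa1b differed at 3 of 250 bases. Hspa1a and Hspa1b have the same match, which starts 104 bases before the start site, and Hspb1 has matches that start 117 and 97 bases before it. Longer runs of alternating units lie at Hspd1 and Hsph1, and are shown with 6 flanking bases on each side and the matched run in capitals.
Hspd1 (chr1:55088053-55088082, minus strand): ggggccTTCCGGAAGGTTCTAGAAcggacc
Hsph1 (chr5:149636282-149636306, minus strand): tgcagaTTCTGGAAAGTTCtcctca
The Hspd1 run lies 55 bases from the annotated start of Hspe1, the gene for the co-chaperonin on the opposite strand, and both runs overlap an annotated exon. RefSeq windows of 300 bases (250 before to 50 after a start) were matched for 6 of the 10 members; Hspa8, Hsp90aa1, Hsp90ab1 and Hsf1 were not matched. GAANNTTC or TTCNNGAA, each its own reverse complement and thus read on both strands, was found in windows of 5 of these 6 members (all but Dnajb1) and in 15.1% of all 32851 windows. A run of 3 alternating units was found at 2 of the 6 members and in 0.603% of all windows. Each member was counted once if any of its windows matched (9 windows for the 6 members), whereas the background counts single windows. The member counts and the background shares are thus in unlike units, and Hspa1a and Hspa1b count separately despite their near-identical stretches. A match describes letters in this window and not a bound site.

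All values are FPKM (fragments scaled to transcript length and library size) as deposited, without read numbers, so that depth is unknown. Each table had its own normalization, and tests were kept within it. The FPKM of a library summed to 375926 to 519915 over cell states and to 396792 to 409131 over lactate doses. Each cell state carried its own markers: 7 genes of the 2-cell program summed to 12430 to 13680 FPKM in 2CLCs and 6.01 to 6.49 in ESCs, 7 naive pluripotency genes to 1314 to 1323 in ESCs, 799 to 900 in 2CLCs and 1.27 to 3.20 in EpiSCs, 7 primed pluripotency genes to 480 to 624 in EpiSCs and at most 35.3 elsewhere, and 7 fibroblast genes to 888 to 915 in MEFs and at most 12.4 elsewhere. The naive sum does not stand for each gene. As deposited, 6 of these 7 genes were lower and 1 was higher in 2CLCs than in ESCs (limma, adjusted p under 0.05). Their median log2 fold change was -2.00, against -0.46 for all genes. EpiSC replicate 1 stood apart (Pearson r across genes 0.973 with each other EpiSC library, against 0.996 between those 2), as did 60 mM replicate 1 in Rn7sk, a small nuclear RNA (27.3 FPKM against 1.26 and 1.71).

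Hspa1a and Hspa1b, which encode the stress-inducible HSP70, had the widest range of the 10 members over the cell states, 471-fold and 478-fold between the highest and the lowest group mean. Both were highest in 2CLCs, then in MEFs, then in ESCs, and close to 0 in EpiSCs, with no overlap between neighbouring states. The EpiSC values near 0 leave the size of the 471-fold and 478-fold ranges uncertain. Hspa1a stood at 20.6, 19.9 and 20.8 FPKM in the 3 libraries of 2CLCs, 5.16, 7.45 and 6.81 in MEFs, 1.65, 0.533 and 0.598 in ESCs, and 0.0232, 0.0914 and 0.0155 in EpiSCs. In ESCs, replicate 1 was well above the other two. Hspa1b stood at 26.5, 28.6 and 27.7 FPKM in 2CLCs, 17.2, 17.1 and 15.7 in MEFs, 5.21, 4.63 and 5.34 in ESCs, and 0.0246, 0.0976 and 0.0511 in EpiSCs. The 12 values of Hspa1b fell into 4 separate levels, one for each state, as the plot by library shows. Because all libraries hold many cells, fewer cells that express a gene and less of its RNA per cell cannot be told apart here.

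**Figure D1:**
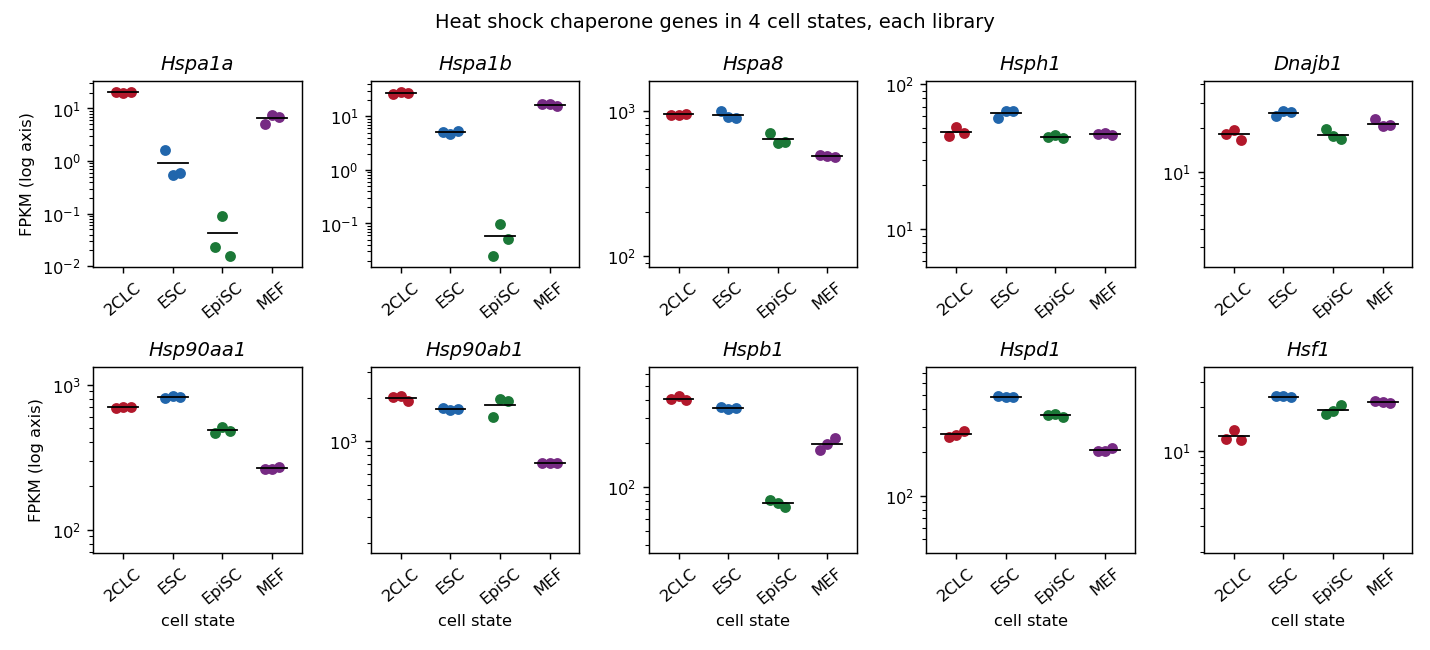
FPKM of each member (log axis, each panel with its own range) in the 4 cell states; points are libraries (3 per state) and lines are means. Hspa1a and Hspa1b spanned 471-fold and 478-fold between group means with 2CLCs highest and EpiSCs lowest, Hspb1 was lowest in EpiSCs (72.6 to 81.1 FPKM), and the remaining members varied at most 3.10-fold between group means.

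2CLCs were compared with ESCs, the cells from which 2-cell-like cells arise in culture. The inducible HSP70 genes rose: Hspa1a from 0.925 ± 0.624 to 20.4 ± 0.469 FPKM (SD, n = 3; log2 fold change of log2(FPKM + 1) 3.52 ± 0.19 SE, adjusted p = 1.26e-08, limma with Benjamini-Hochberg adjustment over all 16358 genes tested) and Hspa1b from 5.06 ± 0.38 to 27.6 ± 1.07 (2.24 ± 0.07, adjusted p = 1.81e-10). Their sum was 8.03-fold higher in 2CLCs (2.82, 95% interval 2.62 to 3.02). Without ESC replicate 1, where Hspa1a was highest, the difference in Hspa1a was 3.77. In 2CLCs the pair stood in a ratio of 1.29 to 1.44 (Hspa1b over Hspa1a), and in ESCs of 3.17 to 8.93, with no overlap. An exact permutation test (two-sided) gave p = 0.1, the smallest possible (adjusted p = 0.15). The ESC ratio rests on Hspa1a values of 0.533 to 1.65 FPKM, and reads could be split between the genes, so its size is uncertain. ESCs at 0 mM in the lactate experiment had ratios of 1.77 to 2.49.

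The other members differed less, and 4 of 10 rose and 5 fell in FPKM as deposited. Over all genes tested 76.5% passed the test in this comparison, 20.1% as higher and 56.4% as lower. Hspa8, the constitutive HSP70 that carries most housekeeping folding, was 940, 946 and 961 FPKM in 2CLCs and 1008, 913 and 898 in ESCs. These ranges overlapped and no difference was called as deposited (0.02, 95% interval -0.13 to 0.17). Hsp90ab1, the constitutive cytosolic HSP90, rose by 0.25 (adjusted p = 0.0258), whereas Hsp90aa1, its stress-responsive counterpart, fell by 0.23 (adjusted p = 9.20e-04). Hspb1, the small heat shock protein HSP27, rose from 350 ± 7.02 to 407 ± 13.9 FPKM (0.22, adjusted p = 0.0137). The call of Hsp90ab1 was lost when any library of these states but 2CLC replicate 3 was left out (adjusted p up to 0.0773), and that of Hspb1 without 2CLC replicate 2 (adjusted p = 0.0504). Dnajb1, the J-domain partner of HSP70, fell by 0.47 and Hsph1, the HSP110 exchange factor, fell by 0.42. Hspd1, the mitochondrial chaperonin HSP60, fell from 483 ± 3.99 to 266 ± 12.4 FPKM (-0.86), and Hsf1 itself fell from 23.6 ± 0.109 to 12.6 ± 1.15 FPKM (-0.86).

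The direction of the smaller differences depends on the scaling. In 2CLCs the median log2 fold change of all genes was -0.46 as deposited and 0.04 after scaling by the median of ratios, and the members then split into 8 higher and 0 lower, with Hspd1 (-0.06, adjusted p = 0.303) and Hsf1 (-0.10, adjusted p = 0.215) not called, while quantile normalization gave 2 higher and 7 lower. Of all genes, 38% were called higher and 31.3% lower in 2CLCs under median-of-ratios scaling, and 23.3% and 50.2% with quantile normalization. Hspa8, not called as deposited, was higher in 2CLCs under median-of-ratios scaling (0.82, adjusted p = 5.49e-07, limma). With quantile normalization it was lower (-0.76, adjusted p = 1.49e-04), so its direction depends on the scaling. Hspa1a (4.18 and 3.69 under these scalings) and Hspa1b (2.99 and 2.43) were higher in 2CLCs under each of them.

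**Figure D2:**
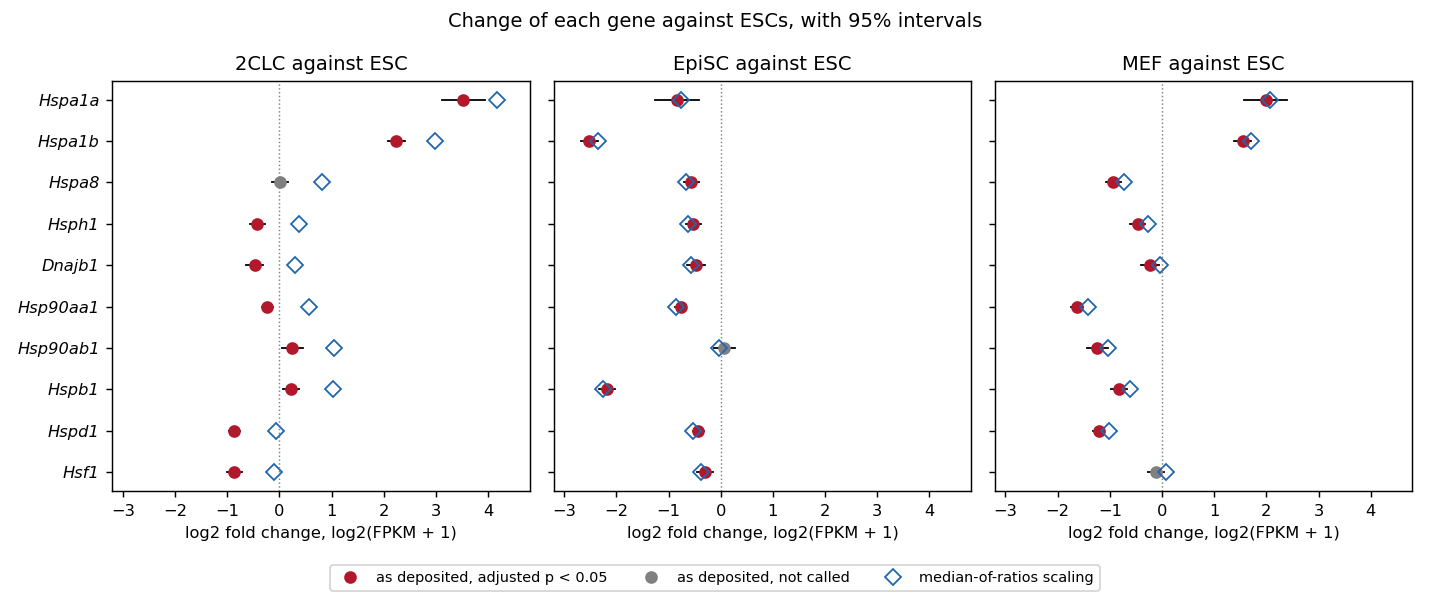
Log2 fold change of each member against ESCs (x axis, log2(FPKM + 1) scale) in 2CLCs, EpiSCs and MEFs; circles are values as deposited with 95% intervals, red where the adjusted p was below 0.05, and diamonds are values after median-of-ratios scaling. In 2CLCs the diamonds lie to the right of the circles for all 10 genes and change the sign of Hsp90aa1, Dnajb1 and Hsph1, whereas in EpiSCs and MEFs both lie closer together, with a change of sign for Hsp90ab1 in EpiSCs and Hsf1 in MEFs, neither of them called.

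In EpiSCs, 9 of the 10 members were lower than in ESCs and 0 were higher in limma (0 also at an unadjusted p under 0.05), where 33.2% of all genes tested were called higher and 26.5% lower (59.7% in either direction). The largest falls on the log2(FPKM + 1) scale were those of Hspa1b (-2.52 ± 0.07, adjusted p = 2.80e-10) and Hspb1 (-2.17 ± 0.07, adjusted p = 5.38e-10). Hspb1 stood at 81.1, 77.4 and 72.6 FPKM in EpiSCs and at 358, 344 and 348 in ESCs, a 4.55-fold difference without overlap, and this was the lowest level of Hspb1 in any of the 4 states. The sum of Hspa1a and Hspa1b was 0.0478, 0.189 and 0.0666 FPKM in EpiSCs against 6.85, 5.16 and 5.94 in ESCs (-2.66, adjusted p = 9.51e-10). Values so near 0 make the size of this fall depend on the pseudocount: it was -4.97 with 0.1 added and -1.10 with 5 added. Hspa1a alone fell by 0.84 on this scale (adjusted p = 0.00247), from a level in ESCs of at most 1.65 FPKM, and by group means it was 21.3-fold lower.

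The abundant chaperones fell by less in EpiSCs. Hspa8 fell from 940 ± 59.4 to 638 ± 55.8 FPKM (-0.56, adjusted p = 2.66e-05) and Hsp90aa1 from 824 ± 11.1 to 485 ± 25.6 (-0.76, adjusted p = 1.28e-07). Hsp90ab1 was 1486, 1951 and 1890 FPKM in EpiSCs and 1693, 1657 and 1678 in ESCs. The low value belongs to the library that stood apart, EpiSC replicate 1: no difference was called with it (0.07, adjusted p = 0.53), and Hsp90ab1 was higher in EpiSCs without it (0.20, adjusted p = 0.00103). Hsph1 (-0.53), Dnajb1 (-0.48), Hspd1 (-0.43) and Hsf1 (-0.29) fell as well, each with no overlap between the libraries of EpiSCs and ESCs. With quantile normalization 1 member, Hsp90ab1, was higher and 9 were lower, where 28.9% of all genes were called higher and 30.1% lower.

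MEFs were the only differentiated cells in the study. Hspa1a and Hspa1b were higher in MEFs than in ESCs and 7 other members were lower, where 34.4% of all genes tested were called higher and 40.9% lower (75.3% in either direction). The sum of Hspa1a and Hspa1b was 22.3, 24.6 and 22.5 FPKM in MEFs, 3.87-fold the level of ESCs (1.80, adjusted p = 6.42e-09). The HSP90 genes and the chaperonin fell most: Hsp90aa1 from 824 ± 11.1 to 266 ± 4.05 FPKM (-1.63, adjusted p = 6.53e-11), Hsp90ab1 from 1676 ± 18.6 to 711 ± 3.89 (-1.24, adjusted p = 1.58e-07) and Hspd1 from 483 ± 3.99 to 208 ± 4.41 (-1.21, adjusted p = 5.16e-10). These were the lowest levels of each of the 3 genes among the cell states as deposited. With quantile normalization Hspd1 was lower in 2CLCs (-1.32 against ESCs) than in MEFs (-1.16). Hspa8 fell by 0.93 and Hspb1 by 0.82, and Hspb1 was still higher in MEFs (180, 197 and 217 FPKM) than in EpiSCs. Hsph1 fell by 0.47 and Dnajb1 by 0.24. The call of Dnajb1 (adjusted p = 0.0156) was lost under median-of-ratios scaling (-0.04) and without ESC replicate 2 or MEF replicate 2 (adjusted p = 0.0573 and 0.0590). Hsf1 was 22.1, 21.6 and 21.4 FPKM in MEFs and 23.7, 23.7 and 23.5 in ESCs, close but without overlap, and was not called (-0.12, 95% interval -0.27 to 0.03), though it was lower in a fit of only these 2 groups (adjusted p = 0.00137).

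Ratios between members within a library do not depend on how libraries are scaled by a common factor. Hspa8 exceeded the summed inducible genes 19.5 to 20.0 times in 2CLCs, 20.1 to 22.2 times in MEFs, 147 to 177 times in ESCs and 3178 to 14700 times in EpiSCs. The EpiSC ratio rests on sums of 0.0478 to 0.189 FPKM, so its size is uncertain. None of the 3 other states overlapped ESCs in this ratio. Hsp90aa1 per Hsp90ab1 was 0.479 to 0.503 in ESCs, 0.342 to 0.370 in 2CLCs, 0.368 to 0.380 in MEFs and 0.252 to 0.313 in EpiSCs, so that ESCs held the largest share of the stress-responsive form. With 3 libraries against 3, an exact permutation test (two-sided) cannot go below p = 0.1, which these 6 differences from ESCs reached (Benjamini-Hochberg adjusted p = 0.15 over 24 comparisons of ratios). Together the 10 members made up 0.855% of the library sum in 2CLCs, 1.06% in ESCs, 0.817% in EpiSCs and 0.528% in MEFs. Their summed FPKM averaged 4440 in 2CLCs, 4391 in ESCs, 3415 in EpiSCs and 1985 in MEFs. The smaller share in 2CLCs than in ESCs therefore does not stand for a smaller sum as deposited.

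**Figure D3:**
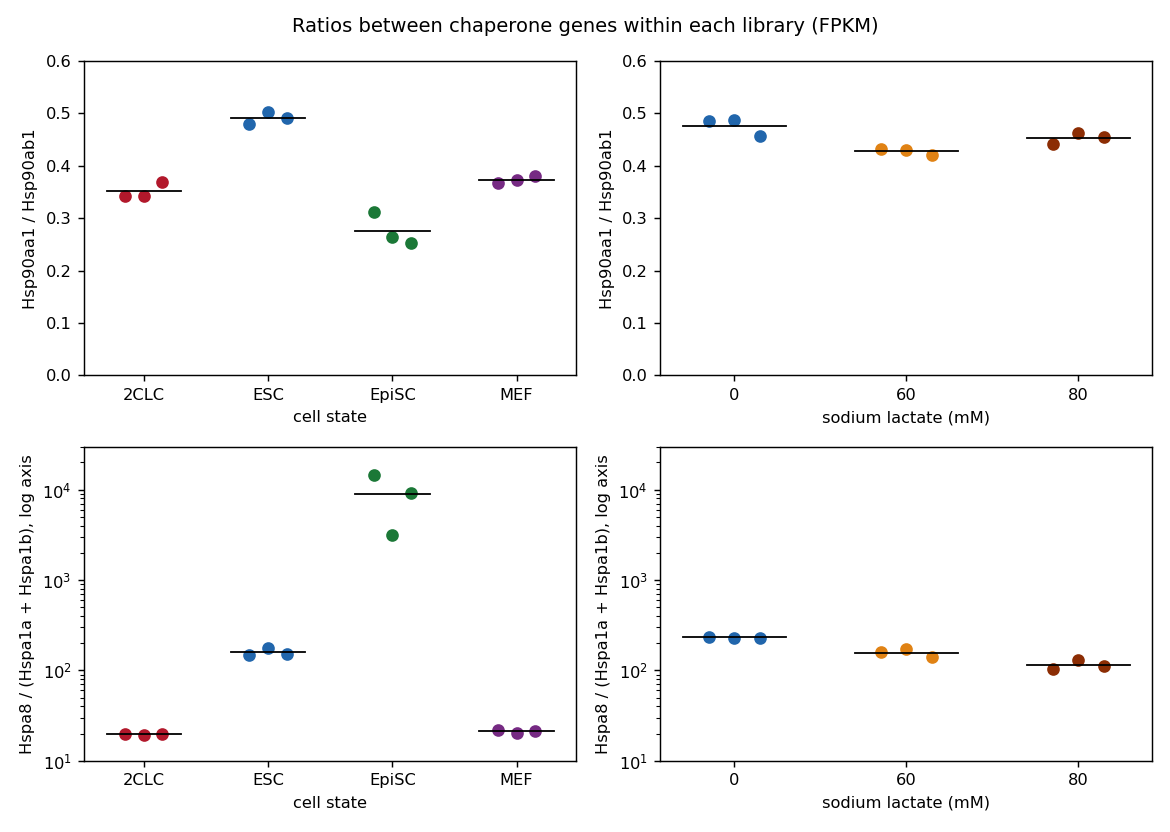
Ratios within each library of Hsp90aa1 to Hsp90ab1 (upper panels, linear axis from 0) and of Hspa8 to the sum of Hspa1a and Hspa1b (lower panels, log axis), by cell state (left) and by sodium lactate dose (right); points are libraries and lines are means. The lower left panel shows 2CLCs and MEFs near 20, ESCs between 147 and 177 and EpiSCs at 3178 or above (with Hspa1a and Hspa1b near 0), and the lower right panel shows the ratio falling from 231 to 237 without lactate to 105 to 129 at 80 mM.

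Hspd1 and Hspe1, the mitochondrial chaperonin and its co-chaperonin, lie head to head on chromosome 1, and their annotated ends overlap by 112 bases. Whether the quantification used strand was not given in the sources used here, so reads from the overlap cannot be assigned to either gene. Hspd1 per Hspe1 was 1.68 to 1.75 in ESCs, 1.65 to 1.92 in 2CLCs, 1.30 to 1.74 in EpiSCs and 1.59 to 1.67 in MEFs. Over the same libraries Hspd1 itself ranged from 205 to 486 FPKM. Its ratio overlapped that of ESCs in 2CLCs and lay just below it in MEFs. In EpiSCs only replicate 1, which stood apart, overlapped ESCs (1.74), and the other two (1.32 and 1.30) lay below all libraries of ESCs and MEFs. Gm20481, annotated on the strand opposite Hspa1a, was listed at 0 in all 9 lactate libraries, and Hspa1l, which starts 546 bases from Hspa1a in the opposite direction, stayed at or below 3.43 FPKM in every library of either table.

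The wider chaperone network was described with 91 genes in lists of HSP70 relatives, J-domain proteins, exchange factors, HSP90 partners, small heat shock proteins, chaperonins, HSF relatives and known HSF1 targets, of which 85 passed the filter in the cell-state table. In 2CLCs 10 rose and 61 fell (median -0.54, all genes -0.46), and under median-of-ratios scaling 36 rose and 22 fell. In EpiSCs 26 rose and 28 fell (21 and 33 under that scaling), and in MEFs 30 rose and 45 fell. The shares called higher and lower were 11.8% and 71.8% in 2CLCs (all genes 20.1% and 56.4%), 30.6% and 32.9% in EpiSCs (33.2% and 26.5%) and 35.3% and 52.9% in MEFs (34.4% and 40.9%), and are given as a description.

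In 2CLCs the largest rises on these lists were those of Dnajb14, a J-domain protein of the endoplasmic reticulum (1.82 to 17.6 FPKM, 2.72), Zfand2a, an HSF1 target also known as AIRAP (7.18 to 28.3 FPKM, 1.84), and Hspa2, an HSP70 best known from the testis (2.26 to 5.64 FPKM, 1.03). The largest falls were those of Fkbp5 (-2.38) and Ppid (-2.21), both immunophilin partners of HSP90, and Dnajc5, a J-domain protein of secretory vesicles (-1.58). All 6 kept their direction under both other scalings. Of 17 HSF1 targets other than the members, 4 rose and 10 fell (9 rose and 1 fell under median-of-ratios scaling). Of 17 HSP90 partners 1 rose and 15 fell (4 and 8 under that scaling), and of 15 chaperonin and prefoldin genes tested 0 rose and 12 fell in limma (0 and 12 also at an unadjusted p under 0.05, and 13 and 1 under that scaling). More HSP90 partners fell than rose under each scaling, whereas the split of the chaperonins turned with it. Of all genes, 20.1% were called higher and 56.4% lower as deposited, so that falls outnumbered rises there as well. The shares were 38% and 31.3% under median-of-ratios scaling and 23.3% and 50.2% with quantile normalization. The list counts are given as a description.

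In EpiSCs Serpinh1, the collagen chaperone HSP47, rose from 16.3 to 95.4 FPKM (2.48), and the J-domain genes Dnajb5 (1.66) and Dnajb4 (1.41) rose too. Hsf2bp, whose product binds HSF2, fell from 23.6 to 0.206 FPKM (-4.35), Sugt1, an HSP90 co-chaperone, fell by 1.77 and Hspa4, an HSP110 relative, fell by 1.16 on the log2 scale. Of the 17 HSF1 targets 7 rose and 5 fell in EpiSCs (6 and 6 under median-of-ratios scaling), while Hspa1a and Hspa1b fell. Of all genes tested, 33.2% were called higher and 26.5% lower in EpiSCs. Bag3, an exchange factor and HSF1 target, was 17.3 FPKM in EpiSCs and 8.57 in ESCs (0.93, adjusted p = 6.09e-07), chosen here after its values were seen. In MEFs the largest rises were those of Cryab, a small heat shock protein (1.40 to 99.3 FPKM, 5.40), Serpinh1 (16.3 to 373 FPKM, 4.44) and Ier5, a regulator of HSF1 (0.508 to 28.5 FPKM, 4.29). The largest falls in MEFs were those of Hsf2bp (-4.49), Fkbp4, an HSP90 immunophilin (-2.44), and Bag4 (-1.98). Of 6 small heat shock genes tested besides Hspb1, 5 rose and 0 fell in MEFs in limma, and of 15 chaperonin and prefoldin genes 0 rose and 14 fell (the same counts at an unadjusted p under 0.05 and under median-of-ratios scaling). Of all genes tested, 34.4% were called higher and 40.9% lower in MEFs.

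Immediate-early genes, which many stimuli including cell handling switch on, were measured beside the members. Their 13-gene sum was 83.9 to 87.5 FPKM in 2CLCs, 170 to 178 in ESCs, 277 to 438 in EpiSCs and 289 to 307 in MEFs. The sum does not stand for each gene: of 12 tested, 4 rose and 4 fell in 2CLCs (5 and 3 under median-of-ratios scaling). The shares of all genes called higher and lower in 2CLCs were 20.1% and 56.4% (38% and 31.3% under that scaling). Ier2, the most abundant in ESCs, fell from 112 to 25.6 FPKM (-2.09), while Fos (0.83), Jun (1.88), Egr1 (0.63) and Btg2 (1.91) rose. These 5 genes were chosen after their values were seen. In EpiSCs and in MEFs 10 of the 12 rose and 1, Ier2, fell. With quantile normalization 8 rose and 1 fell in MEFs. The shares of all genes called higher and lower were 33.2% and 26.5% in EpiSCs, and 34.4% and 40.9% in MEFs (33.5% and 42.4% with quantile normalization). Whether these genes moved with the members for a shared reason was not tested. Rn7sk was 44.9 to 68.4 FPKM in 2CLCs and 0.369 to 7.40 in the other states, and the part of such RNA composition in the 2CLC values was not tested. The fibroblast marker sum was 4.91 to 6.78 FPKM in 2CLCs and 1.50 to 1.87 in ESCs, with Col3a1, Lum and Dcn below 0.1 FPKM in both, and its part in the 2CLC values was not tested.

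Over the 12 cell-state libraries, the named genes whose log2(FPKM + 1) followed Hspa1a most closely among 10948 compared were Ptprg (Pearson r = 0.993), Zfand2a (0.989), the histone genes H2bc6 (0.984) and Hist1h2al (0.981), and Chmp5 (0.981). Ptprg averaged 34.8 FPKM in 2CLCs, 18.5 in MEFs, 8.13 in ESCs and 6.08 in EpiSCs, the same order of states as Hspa1a. Those closest to Hspb1 were Ttc39b (0.997), Stmn2 (0.993), Dcaf12l1 (0.993), Nckap1l (0.991) and Idh2 (0.985). Stmn2 averaged 67.7 FPKM in 2CLCs, 62.8 in ESCs, 31.2 in MEFs and 8.35 in EpiSCs. These coefficients rest on 4 states of 3 libraries each and describe the pattern only.

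The lactate experiment set ESCs at 60 and 80 mM sodium lactate against ESCs at 0 mM, and both comparisons use the same 3 control libraries. Hspa1a and Hspa1b rose at both doses against 0 mM. Hspa1a was 1.73, 1.89 and 1.52 FPKM at 0 mM, 2.65, 2.44 and 3.12 at 60 mM, and 4.38, 3.58 and 3.78 at 80 mM. Hspa1b was 3.26, 3.36 and 3.80 FPKM at 0 mM, 4.61, 4.42 and 5.15 at 60 mM, and 6.25, 5.20 and 6.13 at 80 mM. For each gene the 3 doses did not overlap, as the panels by dose show. These levels are low beside those of Hspa8, which was at least 1106 FPKM in every lactate library.

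**Figure D4:**
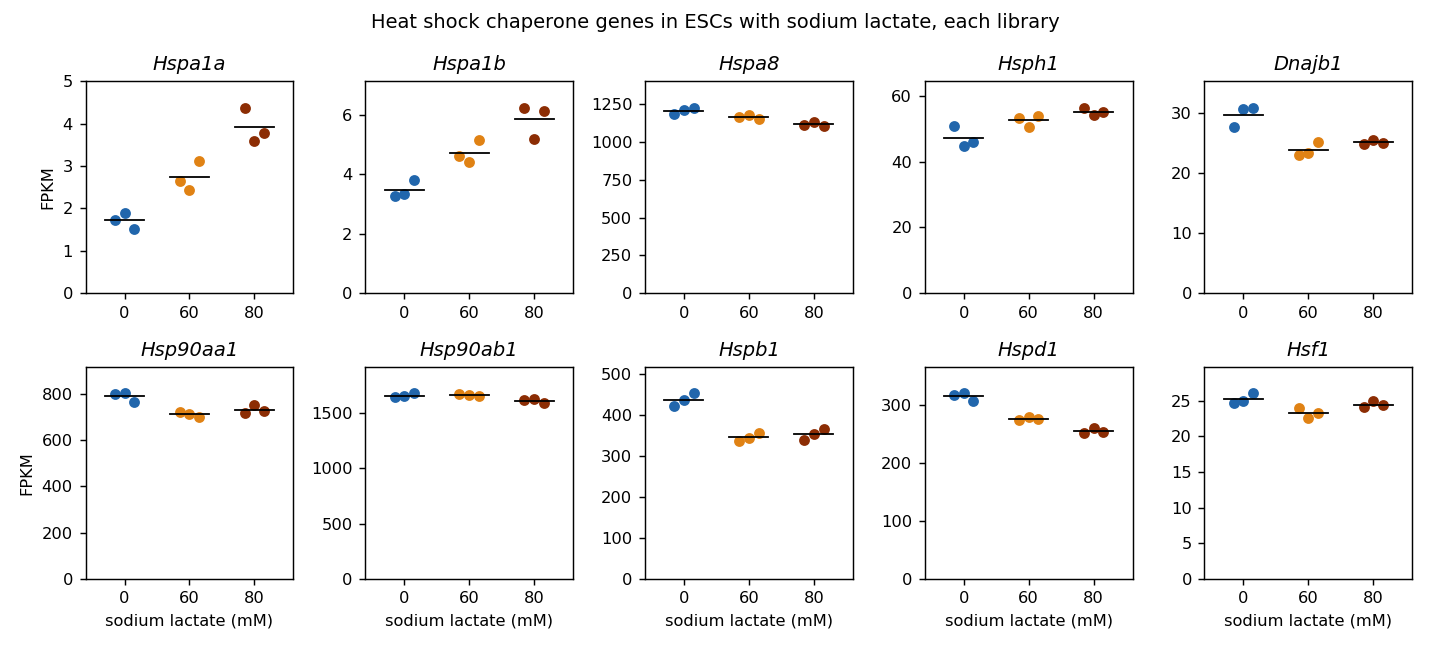
FPKM of each member (linear axes from 0, each panel with its own range) in ESCs at 0, 60 and 80 mM sodium lactate; points are libraries (3 per dose) and lines are means. Hspa1a and Hspa1b were higher at both doses than without lactate (the step from 60 to 80 mM did not pass the test for Hspa1b), Hspd1 averaged 316, 277 and 256 FPKM, and Dnajb1 and Hspb1 were lower at both doses than without lactate.

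At 60 mM the summed inducible genes were 1.44-fold the level at 0 mM (0.45 ± 0.08, adjusted p = 0.00167), and at 80 mM 1.89-fold (0.80 ± 0.08, adjusted p = 2.47e-05, limma over 13271 genes). Of the 10 members, 3 rose and 5 fell at 60 mM, where 42.1% of all genes tested passed the test (23.5% higher, 18.6% lower). At 80 mM 3 rose and 5 fell as well, where 53.1% passed (30% higher, 23.1% lower). The splits were 2 higher and 6 lower at 60 mM and 3 and 6 at 80 mM under median-of-ratios scaling, and 3 and 4, and 3 and 3, with quantile normalization. Of all genes, 21% were called higher and 21.1% lower at 60 mM, and 26.8% and 26.5% at 80 mM, under median-of-ratios scaling. With quantile normalization these shares were 20.9% and 19.6% at 60 mM, and 26% and 26% at 80 mM. The third member to rise at both doses was Hsph1, from 47.3 ± 3.21 FPKM at 0 mM to 52.7 ± 1.81 (0.15, adjusted p = 0.0271) and 55.2 ± 1.21 (0.22, adjusted p = 0.0032). The 0 and 60 mM libraries of Hsph1 overlapped, and its call at 60 mM was lost under median-of-ratios scaling (0.13), with no mean trend (adjusted p = 0.0551) or no filter (0.16), and without 0 mM replicate 2 or 3 or 60 mM replicate 1 or 3 (up to 0.0958).

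Hspb1, Dnajb1, Hspd1 and Hsp90aa1 fell at both doses. Hspb1 was 422, 436 and 453 FPKM at 0 mM, 336, 343 and 355 at 60 mM, and 340, 352 and 366 at 80 mM (-0.34 and -0.31, adjusted p = 6.04e-05 and 5.88e-05). All treated libraries of Hspb1 lay below all control libraries, and the 2 doses overlapped each other. Dnajb1 was 27.6, 30.6 and 30.9 FPKM at 0 mM, 22.9, 23.3 and 25.1 at 60 mM, and 24.7, 25.5 and 25.0 at 80 mM (-0.31 and -0.23, adjusted p = 9.89e-04 and 0.00355). Hspd1 was 318, 321 and 308 FPKM at 0 mM, 274, 280 and 276 at 60 mM, and 252, 260 and 255 at 80 mM (-0.19 and -0.30, adjusted p = 2.14e-04 and 5.35e-06). Hspe1 fell beside Hspd1, from 257 ± 4.66 to 218 ± 1.72 and 205 ± 6.65 FPKM, and the ratio of both genes ranged from 1.20 to 1.31 over the 9 libraries. Hsp90aa1 fell by 0.15 at 60 mM and by 0.11 at 80 mM (adjusted p = 0.00164 and 0.00553), the latter lost with quantile normalization (adjusted p = 0.0501).

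The abundant constitutive forms moved little. Hspa8 was 1182 to 1227 FPKM at 0 mM, 1151 to 1176 at 60 mM (-0.05, adjusted p = 0.0649, not called, but 0.0377 without 0 mM replicate 1 and 0.0171 under median-of-ratios scaling) and 1106 to 1133 at 80 mM (-0.11, adjusted p = 0.00131). The call of Hspa8 at 80 mM was lost with quantile normalization (-0.03). Hsp90ab1 was not called at either dose (0.01, 95% interval -0.03 to 0.05, and -0.04, 95% interval -0.08 to -4.47e-04), though under median-of-ratios scaling it fell at 80 mM (-0.08, adjusted p = 0.00612). Hsf1 fell at 60 mM from 25.3 ± 0.739 to 23.3 ± 0.711 FPKM (-0.11, adjusted p = 0.0448) and was not called at 80 mM (-0.04, adjusted p = 0.396). The 60 mM call of Hsf1 was lost with no filter on low values, quantile normalization, no mean trend or only the compared groups, and when any of 5 of the 6 libraries of these doses (all but 60 mM replicate 1) was left out (adjusted p up to 0.144).

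From 60 to 80 mM, 2 of the 10 members passed the test, where 6.17% of all genes tested did (4.06% higher, 2.11% lower). Hspa1a rose by 0.40 ± 0.10 (adjusted p = 0.0448) and Hspd1 fell by 0.11 on the log2 scale (adjusted p = 0.0251). Hspa1b differed by 0.26 without passing (adjusted p = 0.109). The call of Hspa1a was lost when 60 mM replicate 1 or 2 or any 80 mM library was left out (adjusted p up to 0.14) and with no filter (0.189), and that of Hspd1 when any 60 mM library or 80 mM replicate 1 or 3 was left out (up to 0.0868) and with no mean trend (0.128). The ratio of Hspa8 to the summed inducible genes fell from 231 to 237 at 0 mM to 139 to 172 at 60 mM and 105 to 129 at 80 mM, with no overlap between doses (exact permutation p = 0.1 for each pair, the smallest possible, adjusted p = 0.15). The members together made up 1.11% of the library sum at 0 mM, 1.06% at 60 mM and 1.05% at 80 mM.

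Of the 91 network genes 78 were tested in the lactate table, and 19 rose and 13 fell at 60 mM, 25 rose and 20 fell at 80 mM, and 3 rose and 2 fell between the doses (3 and 0 with quantile normalization). These are 24.4% and 16.7% at 60 mM and 32.1% and 25.6% at 80 mM, against 23.5% and 18.6%, and 30% and 23.1%, of all genes, so the shares lay near the background. Under median-of-ratios scaling 18 rose and 20 fell at 60 mM, and 20 rose and 24 fell at 80 mM. Of 16 HSF1 targets other than the members, 8 rose and 2 fell at each dose (8 and 4 at 60 mM, 8 and 3 at 80 mM under that scaling). The largest rise at both doses was that of Cryab, from 2.53 to 5.50 and 7.65 FPKM (0.88 and 1.29). At 60 mM it was followed by Bag4 (0.40), which regulates HSP70, and Pfdn4, a prefoldin subunit (0.34), and at 80 mM by Pfdn4 (0.49) and Bag3 (0.41). The largest falls were those of Fkbp5 (-0.66 and -0.75) and Hsf2bp (-0.54 and -0.66), followed by Tomm34, a co-chaperone of mitochondrial import (-0.30), at 60 mM and Hspe1 (-0.32) at 80 mM. Of 4 small heat shock genes tested besides Hspb1, 3 rose and 0 fell at each dose in limma (the same at an unadjusted p under 0.05), while Hspb1 fell. Between the doses Cryab (0.41), Bag3 (0.17) and Hsbp1, a negative regulator of HSF1 (0.17), rose, and Hspa14, an HSP70 relative (-0.12), and Cct4, a subunit of the cytosolic chaperonin (-0.10), fell. These calls depend on the setting: Bag3 was not called under median-of-ratios scaling nor Hspa14 and Cct4 with quantile normalization, and 0 network genes were called with no filter or without 80 mM replicate 1, 2 without 60 mM replicate 3 and 1 without any other library of these doses.

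Other measures moved with dose beside the inducible HSP70 genes. The sum of the 7 genes of the 2-cell program was 36.3 to 39.0 FPKM at 0 mM, 81.4 to 88.8 at 60 mM and 128 to 133 at 80 mM, and its part in the rise of Hspa1a and Hspa1b was not tested. The immediate-early sum fell from 151 to 162 FPKM at 0 mM to 119 to 123 at 60 mM and 113 to 115 at 80 mM, with 1 of 8 genes tested higher and 4 lower at 60 mM and 3 higher and 4 lower at 80 mM. Ier2 fell from 78.9 to 58.5 and 49.9 FPKM and Btg2 rose from 8.10 to 12.1 and 13.9. Their part in the members' values was not tested. Markers of EpiSCs summed to 56.9 to 62.6 FPKM at 0 mM, 81.8 to 90.1 at 60 mM and 88.3 to 92.8 at 80 mM, and naive pluripotency genes to 1551 to 1610, 1756 to 1819 and 1840 to 1896, and their part was not tested. Neither set moved as a whole. Of 4 EpiSC markers tested, 2 rose and 0 fell at 60 mM, and 2 rose and 1 fell at 80 mM. Of the 7 naive genes 5 rose and 2 fell at each dose. The shares of all genes called higher and lower were 23.5% and 18.6% at 60 mM, and 30% and 23.1% at 80 mM. Fibroblast markers summed to 1.08 to 1.21 FPKM at 0 mM, 3.66 to 4.43 at 60 mM and 5.36 to 5.73 at 80 mM, with Col3a1 and Dcn below 0.1 FPKM at every dose, and their part was not tested. Among the cell states, members differed between 2CLCs and ESCs at other sizes and, for Hsph1 and Hspb1 as deposited, in the other direction. In 2CLCs the changes were Hspa1a 3.52, Hspa1b 2.24, Hsph1 -0.42, Hspb1 0.22, Hspd1 -0.86, Dnajb1 -0.47 and Hsp90aa1 -0.23. At 80 mM they were, in the same order, 0.85, 0.62, 0.22, -0.31, -0.30, -0.23 and -0.11. In 2CLCs Hsph1, Dnajb1 and Hsp90aa1 were higher under median-of-ratios scaling (0.37, 0.30 and 0.57), and Hspb1 was lower with quantile normalization (-0.39). Hspa8 was not called in 2CLCs as deposited, but was higher under median-of-ratios scaling (0.82) and lower with quantile normalization (-0.76). Hsp90ab1 and Hsf1 were not called at 80 mM as deposited. These values come from separately normalized tables and were not tested against each other.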

How the data were processed

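RNA-seq values of 21 libraries in 7 groups of 3, grouped by their labels, were used. Per the submitters' processing notes, HISAT2 2.0.4, StringTie 2.1.4 and mm10 were used; their annotation was not given in the sources used here. The authors deposited FPKM per gene name in a table for cell states and another for lactate; no counts were used and the depth is unknown. From these, log2(FPKM + 1) was computed. Genes that reached 1 FPKM in 3 or more libraries of their table were fitted with limma 3.58.1 (R 4.3.3) on all groups of that table together with a mean trend, with Benjamini-Hochberg adjustment within each comparison at 0.05. The pipeline was tested on simulated data. False calls there made up 7.59% of calls for 2CLCs against ESCs, 5.16% for EpiSCs and 10.2% for MEFs. In the lactate comparisons they made up 4.23% to 5.15%. A log2 change of -0.5 was recovered in 42% to 44% of cases over cell states and 78% to 80% over lactate doses. For a change of 0.5 recovery was 62% to 64% and 84% to 90%, and for 1 it was 90% to 92% and 98% to 100%. Names were placed with GENCODE M21 and RefSeq windows on GRCm38.p6. Python 3.11.15, pandas 2.3.3, Biopython 1.88 and matplotlib 3.10.9 were used.

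The members and lists were chosen with earlier results of these data known. Named were all members and, per comparison, the 3 largest rises and falls on the network lists among called genes whose higher group averaged 5 FPKM or more and whose groups did not overlap, and the 5 genes of closest pattern to Hspa1a and Hspb1. Replicate numbers were not treated as pairs in the main fits. Correlations of same-numbered deviations were weak (-0.03 to 0.07), which cannot exclude pairing. Between 60 and 80 mM each 80 mM library correlated best with the 60 mM library of its number, which did not hold throughout any other comparison. Alternatives were other pseudocounts, filters, scalings, no trend, only the compared groups, each library left out, a replicate block and a minimum change of 1 (log2); fits without EpiSC replicate 1 or 60 mM replicate 1 where these were not compared, and alternatives for the network lists, were added after seeing the data.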

Additional observations from a re-analysis of the deposited data

How the results depend on the processing

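Of the log2 fold changes of single members under the alternatives, 855 kept direction and side of the threshold, 49 fell below it, 7 rose above it and 16 changed sign. In 2CLCs against ESCs, median-of-ratios scaling turned Hsp90aa1 (0.57), Dnajb1 (0.30) and Hsph1 (0.37). Quantile normalization turned Hspa8 (-0.76), Hsp90ab1 (-0.88) and Hspb1 (-0.39). Hspa8, not called as deposited, was called under both scalings (0.82 under median of ratios). It also turned without ESC replicate 2 or 3. Its value was -0.0154 without replicate 3 and ranged from -0.0154 to 0.0674 over left-out libraries. The other reversals were of values not called: Hsp90ab1 in EpiSCs (-0.0233 scaled by median of ratios, and without EpiSC replicate 2, with a range of -2.2e-05 to 0.196 over left-out libraries), Hsf1 in MEFs (0.0771 scaled by median of ratios), Hsp90ab1 at 60 mM (-0.021 and -0.0343 under the scalings, and without 0 mM replicate 1, with a range of -1.7e-04 to 0.0147), and between the doses Hspa8 (0.00966) and Hsp90ab1 (0.0343) with quantile normalization. Except for the scalings, whose construction moves all genes of a library, the cause was not tested.

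With a minimum log2 change of 1, the members called were 2 in 2CLCs, 2 in EpiSCs, 5 in MEFs and 0 in each lactate comparison, where limma had called 8, 8 and 2 without it. The share of all genes that pass this minimum was not computed, so these counts cannot be read as many or few. Between 60 and 80 mM, 2 members were called, 1 with a pseudocount of 0.1, a filter of 5 FPKM, quantile normalization, no mean trend or only the compared groups, 0 with no filter, and 0 to 1 with a library left out. The summed Hspa1a and Hspa1b missed the threshold between the doses with no filter (0.35, adjusted p = 0.188) and only the compared groups (0.35, adjusted p = 0.0659), and ranged from 0.29 to 0.42 with a library left out (adjusted p up to 0.113). Their other 5 comparisons kept their call under every alternative run.

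With a replicate block, 1 member was called between the doses in place of 2 (Hspa1a was lost, adjusted p = 0.0792), Hsf1 at 60 mM was lost (adjusted p = 0.0746), and 2 network genes were called between the doses in place of 5; the block changed no other call of a member. Network genes called between the doses were 3 with quantile normalization or only the compared groups, 1 with no mean trend, 0 with no filter, and 0 to 2 with a library left out (1 without 60 mM replicate 1). The unknown depth limits what can be said of values near 0, such as Hspa1a and Hspa1b in EpiSCs.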
